A study of Homo sapiens with 18 samples.

Results

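The 9 genes described here supply and balance the deoxynucleotides (dNTPs) from which DNA is made: RRM1, RRM2, RRM2B, TYMS, DUT, TK1, DTYMK, DCK and SAMHD1. They were taken by symbol, with no threshold on their values. Each stands on a single row in all 4 tables, which name 16532 genes in H929, 58884 in each MM1S table and 20308 in the table of RNA immunoprecipitation (RIP). H929 and MM1S are established human multiple myeloma lines, cancers of plasma cells. By its labels, the study targeted RBM39, a splicing factor that binds RNA, and measured gene expression in these cells. H929 libraries labelled scramble (n = 3) stood against libraries labelled shRBM39 (n = 3), a short hairpin RNA to RBM39. MM1S libraries with scramble (n = 2) stood against shRBM39 (n = 2), and MM1S libraries with the vehicle DMSO (n = 3) against indisulam (n = 3), a sulfonamide drug through which the ubiquitin ligase receptor DCAF15 takes up RBM39 for degradation. RIP was done in MM1S with 1 library for an RBM39 antibody and 1 for control IgG. The titles of the drug libraries read only "In", taken here as indisulam. The labels give no hairpin, dose, exposure time or clone, and the numbers of the MM1S libraries could mark hairpins or replicates. Nothing states that libraries of a group came from separate cultures, so each p-value reflects spread among libraries that may be technical.

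Ribonucleotide reductase makes deoxyribonucleotides by reducing ribonucleotides. Its large subunit is RRM1, which pairs either with RRM2, the small subunit of dividing cells, or with RRM2B, also called p53R2, a p53 target used outside S phase and in DNA repair. Thymidylate needs a further route: DUT turns dUTP into dUMP, TYMS methylates dUMP to dTMP, TK1 salvages thymidine to dTMP, and DTYMK phosphorylates dTMP. DCK salvages deoxycytidine and other deoxynucleosides, and SAMHD1 breaks dNTPs down. Several of these genes are transcribed at the start of S phase under E2F control, and drugs against dividing cells, such as hydroxyurea and fluoropyrimidines, act on ribonucleotide reductase and TYMS.

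Before the results on these genes, the targeted gene and the libraries were checked. RBM39 went against the H929 labels, at 4.43 to 4.56 FPKM (fragments per kilobase of transcript, scaled to library depth) in the 3 libraries labelled scramble and 35.6 to 38.6 FPKM in the 3 labelled shRBM39. The H929 values below are therefore given as labelled and are not read as effects of knockdown. RBM39 went with the labels in the MM1S knockdown, at 176.3 and 204.6 TPM (the same scaled to one fixed total per library) against 64.8 and 52.2 TPM, and its transcript was 178.3 to 196 TPM with DMSO against 149.4 to 226.5 TPM with indisulam. Depth relative to scramble replicate 1 ran from 0.975 to 1.15 in the rest of H929 and is unknown elsewhere. Of 10 plasma cell markers, 10 passed the filter on low values in every comparison. Indisulam replicate 3 had the lowest RBM39 of its group, 149.4 against 217.4 and 226.5 TPM, and without it 65.7% of all genes were called in place of 29.9%. A gene was called at an adjusted p below 0.05 in limma's moderated test (Benjamini-Hochberg over all genes of the table, log2(value + 1) scale), and log2 differences below are on that scale. FPKM and TPM are per length, so levels of different genes may be compared within a library.

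In MM1S, RRM1, RRM2, TYMS, TK1 and DTYMK fell under both perturbations, and RRM2 and TYMS lay near the bottom of the whole transcriptome with indisulam. With indisulam, 7 of the 9 genes were called lower and 1, SAMHD1, higher, where 29.9% of all 13445 genes tested were called, 21.5% lower and 8.47% higher. In the MM1S knockdown, 5 of the 9 were called lower and 0 higher, where 10.3% of 14152 genes were called, 6.35% lower and 3.97% higher. In H929, RRM2, TYMS, TK1 and DTYMK (4 genes) were called higher and RRM2B and SAMHD1 (2 genes) lower with the shRBM39 label, where 72.2% of 10360 genes were called, 24.1% higher and 48.1% lower, so the number of calls in H929 is close to the background. The groups did not overlap for 8 of the 9 genes with indisulam (7 lower, 1 higher; 47.3% of all genes, 32.3% lower and 14.9% higher), for 9 in the knockdown (7 lower, 2 higher; 62.4% of all genes, 31.9% lower and 30.5% higher), and for 6 in H929 (4 higher, 2 lower; 74.7% of all genes, 25.1% higher and 49.6% lower). All 9 passed the filter in each table. Their median log2 difference was -1.97 with indisulam, -1.15 in the MM1S knockdown and 0.08 in H929, against -0.05, -0.00 and -0.13 for all genes tested. The H929 shift of -0.13 bears on small differences: relative to it, RRM1 stood at 0.21, DUT at 0.21 and DCK at 0.07, and after median scaling 8 of the 9 were called. Median scaling also moved the share of higher calls among all genes from 33.4% to 54.3% in H929 and from 28.3% to 46.7% with indisulam. In these bulk libraries, fewer cells in S phase and less RNA of these genes per cell cannot be told apart.

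**Figure D1:**
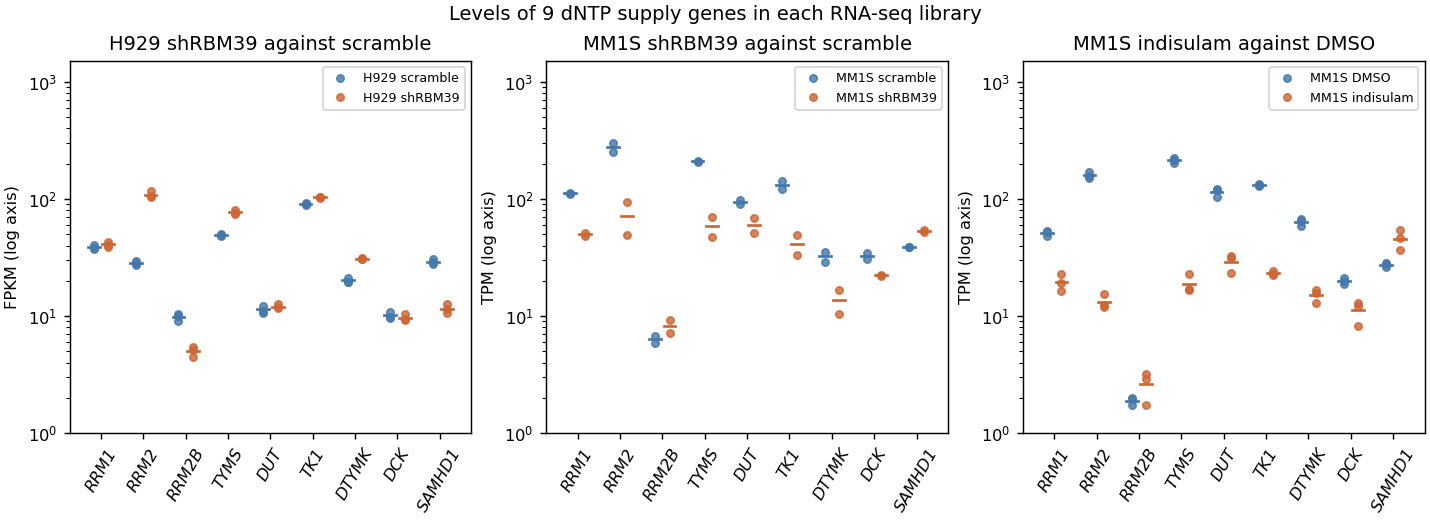
Level of each of the 9 genes in every RNA-seq library (points) with the group mean (bar), on a log axis, in FPKM for H929 and TPM for both MM1S tables. RRM2 is at 104 to 116 FPKM in the H929 libraries labelled shRBM39 and at 11.9 to 15.3 TPM with indisulam; RRM2B is the lowest of the 9 in every MM1S library.

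RRM2, the small subunit that follows the cell cycle, had the widest range of the 9. With DMSO it was at 156.4, 151.4 and 168.9 TPM and with indisulam at 12.5, 15.3 and 11.9 TPM. All 3 treated libraries lay far below all 3 controls, a 12.0-fold lower mean. The fitted log2 value was -3.50 (SE 0.123; limma adjusted p = 2.56e-05), the third lowest of 13445 genes. In the knockdown, RRM2 was at 253.4 and 297.8 TPM with scramble and at 93.7 and 49.6 TPM with shRBM39. The groups did not overlap, but the shRBM39 libraries differed widely from each other, 71.6 ± 31.2 TPM (mean ± SD, n = 2). The fitted log2 value was -1.99 (SE 0.308; limma adjusted p = 0.0256). H929 went the other way, with RRM2 at 29.4, 27.1 and 28.2 FPKM in the libraries labelled scramble and at 115.9, 104 and 106.6 FPKM in those labelled shRBM39. That is a 3.85-fold higher mean with no overlap (log2 difference 1.91, SE 0.0506, limma adjusted p = 1.31e-11), the eighth highest of 10360 genes in the direction of the labels.

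RRM1 is the large subunit that both small subunits need. It was at 52.4, 47.8 and 53 TPM with DMSO and at 19.2, 22.7 and 16.3 TPM with indisulam (log2 difference -1.36, SE 0.143; limma adjusted p = 7.91e-04). In the knockdown it was at 111 and 112.3 TPM with scramble and at 51.5 and 48.4 TPM with shRBM39 (log2 difference -1.15, SE 0.118; limma adjusted p = 0.0141). Neither pair of groups overlapped. In H929 the groups overlapped, at 38.5, 37.6 and 40 against 43, 40.5 and 39.1 FPKM, with a log2 difference of 0.08 (95% confidence interval -0.03 to 0.18, limma adjusted p = 0.177). After median scaling the H929 difference was 0.24 and passed.

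RRM2B, the p53-responsive small subunit, was the lowest of the 9 in every MM1S library. It was at 2.01, 1.97 and 1.73 TPM with DMSO and at 3.22, 2.93 and 1.75 TPM with indisulam. Replicates 1 and 2 lay above all controls and replicate 3 among them, and the log2 difference of 0.30 did not pass (95% interval -0.18 to 0.79, limma adjusted p = 0.304). Without indisulam replicate 3 it was 0.49 and passed (limma adjusted p = 0.0108; range over all alternatives 0.0108 to 0.609). In the knockdown RRM2B was at 5.88 and 6.81 TPM with scramble and at 9.31 and 7.21 TPM with shRBM39, without overlap, and the log2 difference of 0.33 did not pass (95% interval -0.18 to 0.84, limma adjusted p = 0.318). In H929 it was lower in the libraries labelled shRBM39, at 4.49, 5.45 and 5.17 against 10.4, 9.1 and 9.99 FPKM (log2 difference -0.84, SE 0.0745, limma adjusted p = 3.43e-07). There RRM2 and RRM2B were on opposite sides, as their values also were in MM1S.

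The ratio of the small subunits within a library does not depend on scaling between libraries. RRM2 was at 77.8, 76.9 and 97.6 times the level of RRM2B with DMSO and at 3.88, 5.22 and 6.79 times with indisulam. The log2 ratio was lower by 4.02, the widest gap of the 3 comparisons (-4.02, two-sided exact permutation p = 0.1). In the knockdown the ratio was 43.1 and 43.7 with scramble against 10.1 and 6.88 with shRBM39 (difference of log2 ratios -2.38, exact permutation p = 0.33). In H929 it was 2.83, 2.98 and 2.82 in the libraries labelled scramble and 25.8, 19.1 and 20.6 in those labelled shRBM39 (difference 2.91, exact permutation p = 0.1). No pair of groups overlapped, but 0.1 is the smallest p that 3 against 3 libraries allow and 0.33 the smallest for 2 against 2. Even the lowest of these ratios left RRM2 above RRM2B in all 16 libraries.

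**Figure D2:**
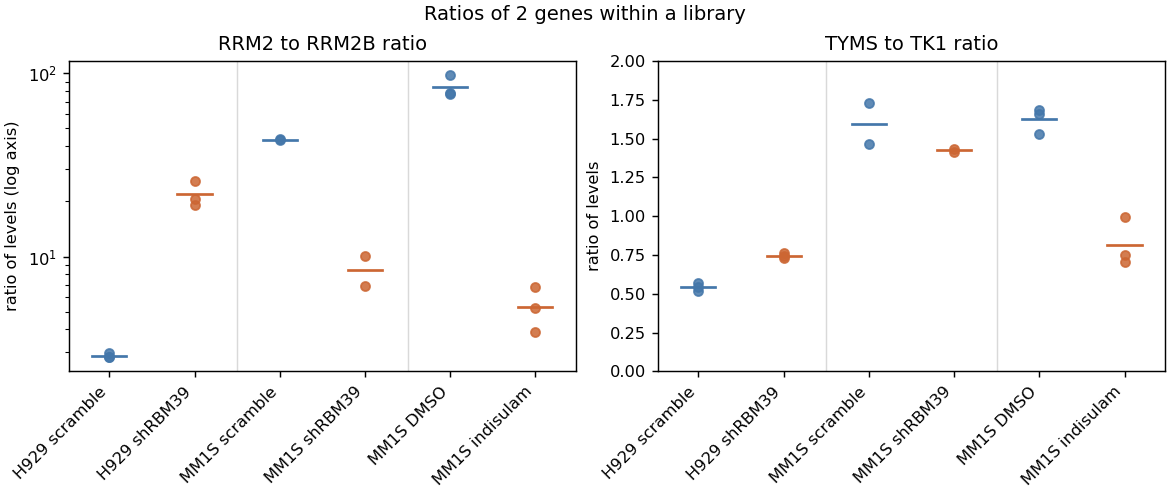
Ratio of RRM2 to RRM2B (left, log axis) and of TYMS to TK1 (right, linear axis from 0) in each RNA-seq library, with group means as bars; grey lines separate the 3 tables. The RRM2 to RRM2B ratio is 76.9 to 97.6 with DMSO and 3.88 to 6.79 with indisulam, and the TYMS to TK1 ratio is below 1 in all 3 indisulam libraries.

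TYMS makes thymidylate from dUMP. It was at 216.4, 202.6 and 223.7 TPM with DMSO and at 16.8, 22.9 and 17 TPM with indisulam. That is an 11.3-fold lower mean without overlap (log2 difference -3.45, SE 0.136, limma adjusted p = 3.42e-05), the fourth lowest of 13445 genes and next after RRM2. In the knockdown TYMS was at 208.1 and 210 TPM with scramble and at 70.2 and 47 TPM with shRBM39 (log2 difference -1.85, SE 0.208, limma adjusted p = 0.0156). In H929 it was at 50.5, 49.5 and 48 FPKM against 79.7, 74.9 and 76 FPKM in the libraries labelled shRBM39 (log2 difference 0.63, SE 0.0431, limma adjusted p = 3.38e-08). ENOSF1 overlaps TYMS on the opposite strand, and strand use in counting is not given in the sources used here, so reads of both cannot be told apart where they overlap. ENOSF1 was 24.8 ± 1.6 TPM with DMSO and 10.1 ± 4.71 TPM with indisulam (SD, n = 3 each), well below TYMS in the controls. With indisulam it lay closer to TYMS, whose mean was 18.9 TPM there. ENOSF1 was itself called lower with indisulam (log2 difference -1.33, limma adjusted p = 0.0257).

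TK1, which salvages thymidine and is made mainly in S phase, was lower in both MM1S comparisons. It was at 128.2, 132.6 and 134.8 TPM with DMSO and at 22.3, 23 and 24.2 TPM with indisulam, with little spread within either group (log2 difference -2.46, SE 0.0904, limma adjusted p = 2.56e-05). In the knockdown it was at 142 and 121.5 TPM with scramble and at 48.9 and 33.2 TPM with shRBM39 (log2 difference -1.68, SE 0.215, limma adjusted p = 0.0191). The H929 difference was small but did not overlap, at 88.3, 91 and 92.3 against 104.4, 103 and 102.3 FPKM (log2 difference 0.19, SE 0.0387, limma adjusted p = 6.82e-04). The TYMS to TK1 ratio was 1.69, 1.53 and 1.66 with DMSO and 0.753, 0.995 and 0.703 with indisulam, a difference of log2 ratios of -1.01 (exact permutation p = 0.1). It was 1.47 and 1.73 against 1.43 and 1.42 in the knockdown (difference -0.16, exact permutation p = 0.33), and 0.572, 0.544 and 0.521 against 0.763, 0.728 and 0.743 in H929 (difference 0.45, exact permutation p = 0.1).

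DTYMK, the kinase that carries dTMP on to dTDP, was at 59.1, 64.8 and 67.9 TPM with DMSO and at 12.9, 15.6 and 16.7 TPM with indisulam (log2 difference -2.02, SE 0.134, limma adjusted p = 1.57e-04). In the knockdown it was at 29 and 35.5 TPM with scramble and at 16.7 and 10.5 TPM with shRBM39 (log2 difference -1.22, SE 0.249, limma adjusted p = 0.0446), the weakest of the 5 calls there. In H929 the libraries labelled shRBM39 were higher, at 30.6, 31.2 and 30.4 against 19.7, 21.1 and 19.6 FPKM (log2 difference 0.59, SE 0.0486, limma adjusted p = 1.99e-07). DTYMK thus stood with TYMS and RRM2 in each table.

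DUT, which removes dUTP and provides dUMP to TYMS, was at 103.7, 120.2 and 121.9 TPM with DMSO and at 23.5, 31.2 and 32.3 TPM with indisulam (log2 difference -1.97, SE 0.146, limma adjusted p = 2.31e-04). In the knockdown the groups did not overlap, at 97.7 and 90.8 against 69.2 and 50.9 TPM, and the log2 difference of -0.66 did not pass (SE 0.18, limma adjusted p = 0.0754). In H929 they overlapped, at 11.1, 10.7 and 12.3 against 12.6, 12 and 11.7 FPKM (log2 difference 0.08, 95% interval -0.06 to 0.21, limma adjusted p = 0.273). After median scaling the H929 difference was 0.24 and passed. DUT has processed pseudogenes that could share its reads. Of the 8 in the MM1S tables, DUTP6 had the highest level, at 1.18 TPM with DMSO and 4.35 TPM with indisulam (means, log2 difference 1.26, limma adjusted p = 0.0134), opposite to DUT and far below it.

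DCK salvages deoxycytidine and activates nucleoside drugs such as cytarabine. It was at 19.9, 18.9 and 21.1 TPM with DMSO and at 13, 12.3 and 8.27 TPM with indisulam (log2 difference -0.81, SE 0.189, limma adjusted p = 0.0184), with the lowest value in replicate 3. The knockdown values were 30.7 and 34.3 TPM with scramble and 22.3 and 22.2 TPM with shRBM39, without overlap, and the log2 difference of -0.53 did not pass (SE 0.135, limma adjusted p = 0.067). In H929 the groups overlapped, at 10.9, 9.72 and 9.88 against 9.28, 9.41 and 10.4 FPKM, with a log2 difference of -0.06 that turned to 0.10 after median or quantile scaling (95% interval as deposited -0.20 to 0.08, limma adjusted p = 0.404).

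SAMHD1, the dNTP triphosphohydrolase, rose with indisulam, where the synthesis genes above other than RRM2B fell. It was at 28, 26.2 and 28.1 TPM with DMSO and at 46.5, 54.4 and 36.6 TPM with indisulam, all 3 above all controls (log2 difference 0.70, SE 0.156, limma adjusted p = 0.0151). It was the highest of the 9 genes in each indisulam library, where TYMS had been highest with DMSO. In the knockdown it was at 38.7 and 38.5 TPM with scramble and at 54.7 and 52.4 TPM with shRBM39, without overlap, and the log2 difference of 0.46 did not pass (SE 0.12, limma adjusted p = 0.0683). In H929 it was lower in the libraries labelled shRBM39, at 10.6, 11.6 and 12.6 against 30.7, 28.7 and 27.8 FPKM (log2 difference -1.26, SE 0.0649, limma adjusted p = 2.44e-09). SAMHD1 is abundant in myeloid and T cells, and in H929 the summed markers of both were lower with it. Summed markers of B cells, of fibroblasts and smooth muscle, and of epithelium were lower too. The 10 plasma cell markers went the other way, summing to 2766.7 to 2944.6 FPKM with scramble and 4193 to 4434.8 FPKM with shRBM39. Of these 10, 7 were called higher and 3 lower, where 24.1% and 48.1% of all genes were. The 6 macrophage and monocyte markers summed to 25.1 to 26.9 FPKM with scramble and 13.4 to 14.7 FPKM with shRBM39, with 5 of 6 below 1 FPKM on average, and T cell markers (5 of 6 in the table) to 39.3 to 47.1 and 15.7 to 18.5 FPKM, with 4 of 5 below 1. B cell markers summed to 4.27 to 4.90 and 1.93 to 2.11 FPKM, with 3 of 5 below 1. Fibroblast and smooth muscle markers summed to 15.8 to 17.1 and 5.46 to 5.87 FPKM, with 3 of 4 below 1. Epithelial markers summed to 2.10 to 3.49 and 0.682 to 1.29 FPKM, with 4 of 4 below 1. In MM1S, macrophage markers summed to 9.51 to 10.6 TPM with DMSO and 7.22 to 8.34 TPM with indisulam, and to 17.3 to 22.2 TPM with scramble and 7.6 to 11.8 TPM with shRBM39. T cell markers summed to 3.69 to 4.83 TPM with DMSO and 1.37 to 1.71 TPM with indisulam, and to 5.17 to 5.76 TPM with scramble and 2.76 to 2.85 TPM with shRBM39. These MM1S sums were lower where SAMHD1 was higher, and the T cell genes CD3D and CD3G were listed at 0. Most of each control sum was 1 gene. In the knockdown CD68 went from 18.0 to 7.5 TPM and CD3E from 5.0 to 0.915 TPM. ITGAM (1.16 to 1.9 TPM) and TRAC (0.22 to 1.47 TPM) were higher there, though neither passed. In H929 scramble libraries CD3E averaged 42.9, CD68 25.5 and ACTA2 16.5 FPKM, most of the sums of their lists. The part of these markers in the SAMHD1 result was not tested.

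**Figure D3:**
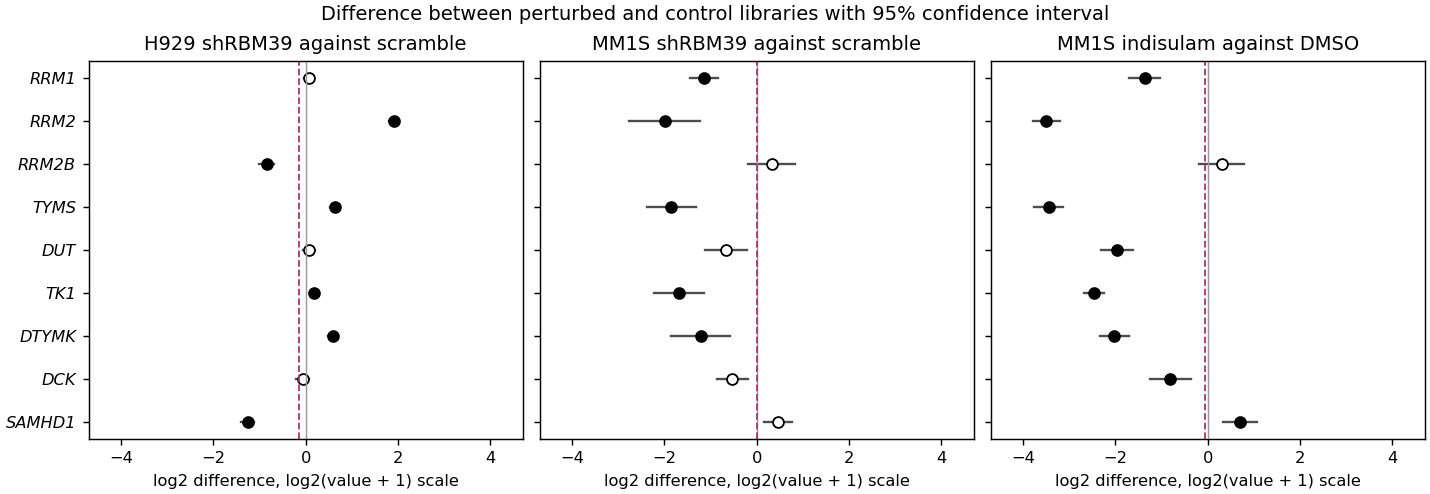
Log2 difference between perturbed and control libraries for each of the 9 genes (points, filled where limma's adjusted p was below 0.05) with its 95% confidence interval; the dashed line is the median of all genes tested. RRM2 is at -3.50 and TYMS at -3.45 with indisulam, while SAMHD1 is at 0.70 there and at -1.26 in H929.

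The MM1S calls rest on few libraries. Without the filter on low values limma called 0 of the 9 genes in the knockdown, though 8 had an unadjusted p below 0.05. Limma without trend and robust settings ended that of DTYMK in the knockdown, while quantile normalization added that of SAMHD1 there (log2 difference 0.53, adjusted p = 0.0464). With 2 libraries a group, leaving 1 out ended all 5 knockdown calls for 3 of the 4 libraries and left 4 without shRBM39 replicate 1. With indisulam, leaving out a DMSO library ended the calls of DCK and SAMHD1 (6 calls remained in number), and without indisulam replicate 3 all 9 genes passed, 7 lower and 2 higher.

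The summed level of the 9 genes was 766, 766.5 and 821.1 TPM with DMSO and 169.7, 200.3 and 165 TPM with indisulam. In the knockdown it was 916.4 and 947.5 TPM with scramble and 436.4 and 321.3 TPM with shRBM39. H929 summed to 284.6 to 289.6 FPKM in the libraries labelled scramble and 392 to 410.4 FPKM in those labelled shRBM39, most of the gap being RRM2. With DMSO the order from high to low was TYMS, RRM2, TK1, DUT, DTYMK, RRM1, SAMHD1, DCK and RRM2B in all 3 libraries. TYMS and RRM2 did not overlap there, nor did RRM2 and TK1, whereas TK1 (128.2 to 134.8 TPM) and DUT (103.7 to 121.9 TPM) lay close, and DTYMK (59.1 to 67.9 TPM) and RRM1 (47.8 to 53 TPM) were neighbours. With indisulam SAMHD1 led, followed by DUT and TK1, whose values overlapped. RRM2, second of the 9 with DMSO, was eighth in replicate 1 and seventh in replicates 2 and 3.

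Genes of DNA replication are transcribed in the same phase of the cell cycle as several, not all, of the 9 genes. All 9 were set beside 35 replication genes, such as the MCM helicase subunits, PCNA and CDC6. Of these 35, 34 were called lower with indisulam and 24 in the knockdown, with 0 higher in either. Over all genes, 21.5% and 6.35% were called lower. The list mean fell by 1.66 and 1.19 on the log2 scale (changes of -1.66 and -1.19). In H929, 18 were called higher and 7 lower, where 24.1% and 48.1% of all genes were, and 23 and 1 after median scaling. The list mean differed by 0.21 there. Beyond this list mean, RRM2 was at -1.84 with indisulam and -0.80 in the knockdown, and TYMS at -1.79 and -0.66. RRM1 was at 0.29 with indisulam, without overlap, and at 0.04 in the knockdown, with overlap, while SAMHD1 was at 2.36 and 1.65 and RRM2B at 1.96 and 1.52. DTYMK was at -0.37 and -0.03 and overlapped between groups in both. In H929, RRM2 was at 1.70 beyond the list mean and SAMHD1 at -1.47. TK1 was at -0.80 and -0.49, DUT at -0.31 (overlapping) and 0.53, and DCK at 0.85 and 0.66. Where the groups did not overlap, the two-sided exact permutation p was 0.1 with indisulam and in H929 and 0.33 in the knockdown, the smallest these designs allow, so none could pass 0.05. Some list genes were themselves near RRM2 and TYMS. With indisulam CDC6 was at -3.34, CDC45 at -3.00 and UHRF1 at -2.91, beside -3.50 and -3.45 for RRM2 and TYMS. In the knockdown GINS4 was at -2.12 and CDC6 at -2.07, beside -1.99 and -1.85. The list medians were -1.56 and -1.18. Adding 1 before the log narrows differences of genes at low levels.

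**Figure D4:**
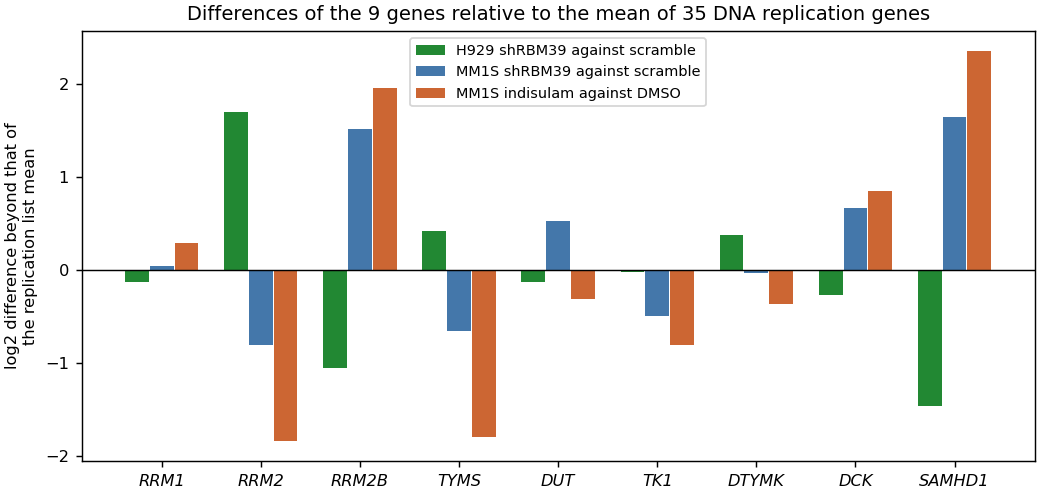
Log2 difference of each gene minus the change in the mean of 35 DNA replication genes of the same libraries (bars, starting at 0), in the 3 comparisons. RRM2 and TYMS lie below the mean of the replication list with indisulam, at -1.84 and -1.79, and SAMHD1 and RRM2B above it, at 2.36 and 1.96.

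Of 21 E2F, RB and S-phase regulators, 14 were called lower in the knockdown and 12 with indisulam, with 0 and 1 higher, where 6.35% and 21.5% of all genes were called lower. The other 7 and 8 did not pass, E2F3, E2F4, RBL2 and ATR in neither comparison. MYBL2, a transcription factor of the cell cycle, fell from 159.4 to 32.3 TPM in the knockdown and from 105.5 to 11.9 TPM with indisulam. CCNF, cyclin F, which directs RRM2 protein to degradation, fell from 32.6 to 8.47 TPM in the knockdown, and E2F2 from 31.4 to 4.46 TPM with indisulam. FZR1, an activator of the anaphase-promoting complex, was the 1 called higher, from 27.6 to 40.7 TPM. In H929, 6 were called higher and 9 lower, where 24.1% and 48.1% of all genes were, and 9 and 6 after median scaling. MYBL2 was at 241.5 FPKM in the libraries labelled shRBM39 against 190 FPKM, and E2F7, an E2F repressor, at 4.13 against 9.58 FPKM. Other E2F genes did not share 1 direction. E2F8 was called higher, at 5.37 against 3.13 FPKM. E2F3 and E2F1 were called lower, at 5.65 against 10.1 FPKM and 33.8 against 47.5 FPKM.

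RRM2B is a p53 target, and 22 or 21 of 23 other p53 targets could be tested. In H929, 21 of 22 were called lower in the libraries labelled shRBM39 and 1 higher, 18 and 1 after median scaling, with a median log2 difference of -0.70. Of all H929 genes as deposited, 48.1% were called lower and 24.1% higher. AEN, an exonuclease induced by p53, was at 23.3 against 58.4 FPKM. In the knockdown 5 of 22 were called higher and 0 lower, where 3.97% and 6.35% of all genes were. ZMAT3 rose there from 4.15 to 15.5 TPM and FAS, a death receptor, from 23.3 to 60.8 TPM. These knockdown calls did not hold without the filter on low values. With indisulam 11 of 21 were called higher and 0 lower, with a median of 0.71, where 8.47% and 21.5% of all genes were called. MDM2, the ligase that restrains p53, rose from 81.5 to 264.6 TPM. RRM2B itself, at 0.33 and 0.30 in MM1S, lay under the list median with indisulam and near it in the knockdown (0.29).

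Folate genes feed the methyl group to TYMS. With indisulam 6 of 12 were called lower and 1 higher, where 21.5% and 8.47% of all genes were. GGH, which trims folate polyglutamates, fell from 71.4 to 8.51 TPM, and SLC19A1, the reduced folate carrier, from 28.6 to 10.2 TPM. In the knockdown 3 were called lower and 1 higher, where 6.35% and 3.97% of all genes were. SHMT1, a serine hydroxymethyltransferase, fell there from 33.3 to 8.52 TPM. In H929, 3 of 11 were called higher and 6 lower, and 5 and 5 after median scaling. Of all H929 genes as deposited, 72.2% were called, 24.1% higher and 48.1% lower. SHMT1 was at 14.8 against 10.1 FPKM in the libraries labelled shRBM39, while the mitochondrial MTHFD2 was at 44 against 90.1 FPKM.

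Other kinases and transporters act beside TK1 and DCK. With indisulam 4 of 11 were called lower and 0 higher, where 29.9% of all genes were called, among them NME1, a nucleoside diphosphate kinase, from 237.4 to 68.6 TPM, and SLC29A1, a nucleoside transporter, from 87.3 to 42.3 TPM. In the knockdown 1 was lower, SLC29A1, from 121.8 to 78.6 TPM, and 1 higher, the mitochondrial deoxyguanosine kinase DGUOK, from 65.5 to 98.9 TPM. Both were close to the threshold (limma adjusted p = 0.0482 and 0.0427) and did not hold without the filter on low values. Of all genes, 10.3% were called there. In H929, 3 of 12 were higher and 4 lower (4 and 3 after median scaling), below the 72.2% of all genes called, with the mitochondrial thymidine kinase TK2 at 6.44 against 11.5 FPKM. Of the breakdown and pool-cleaning genes besides SAMHD1, 6 of 13 were called lower with indisulam and 0 higher. Of all genes, 21.5% and 8.47% were. Genes of the list were among the lower calls as follows. ADA, adenosine deaminase, fell from 170.2 to 59.7 TPM, and NUDT1, which clears oxidised dGTP, from 57.3 to 16.2 TPM. NUDT1 was also the 1 of 13 called in the knockdown, from 49 to 16.9 TPM, where 10.3% of all genes were called. In H929, 6 of 14 were higher and 5 lower (8 and 3 after median scaling), where 72.2% of all genes as deposited were called. ADA was at 277.3 against 200.7 FPKM there.

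Ribonucleotide reductase is recharged by thioredoxin and glutaredoxin. Of 7 such genes, 2 were called lower with indisulam, near the 21.5% of all genes called lower: TXN from 316.8 to 146.2 TPM and GLRX2 from 18.8 to 7.22 TPM. In the knockdown limma called 0 of 7, and 1 had an unadjusted p below 0.05. In H929, 5 were called higher and 2 lower, where 24.1% and 48.1% of all genes were, and 5 and 1 after median scaling. Glutathione reductase (GSR) was at 26.8 against 12.2 FPKM and TXN at 211 against 170.1 FPKM in scramble.

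The patterns closest to 4 of the genes were ranked by Pearson r over 16 libraries, as log2(value + 1) minus the control mean of the same table, among 9254 genes tested in all 3 comparisons. The points share tables, groups and control means, and r is given as a description. FEN1 (r = 0.995) and TUBB (0.995) were among the 3 closest to RRM2, and for TYMS the closest were LIG1 (0.998), CDC6 (0.996) and TCF19 (0.996). RRM2B was closest to ZDHHC9 (0.981), ZNHIT6 (0.978) and MBTPS1 (0.977). SAMHD1 was closest to AEN (0.988), HELZ2 (0.981) and SLC25A44 (0.98). Among the 9 themselves, RRM2 and DTYMK had r = 0.981, TYMS and TK1 0.987, RRM2B and SAMHD1 0.957, and RRM2 and SAMHD1 -0.893.

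RRM2, TYMS, TK1, DUT and DTYMK all fell with indisulam, and the bases before their transcription starts are shown with those of SAMHD1, which rose (RefSeq, GRCh38.p14; 8 of the 9 genes matched by symbol). Capitals mark an E2F-type word (TTTCCCGC, TTTGGCGC, TTTCGCGC or TTTGCCGC) where there is one and otherwise CCAAT, the word bound by NF-Y, on either strand. The TYMS window is chr18:657563-657652, plus strand; DUT, at start 4 of 4, is chr15:48332149-48332178, plus strand; RRM2 is chr2:10122640-10122669 and chr2:10122667-10122696, plus strand; TK1 is chr17:78187106-78187135, minus strand; DTYMK is chr2:241686816-241686917, minus strand; SAMHD1 is chr20:36951709-36951798, minus strand.
TYMS: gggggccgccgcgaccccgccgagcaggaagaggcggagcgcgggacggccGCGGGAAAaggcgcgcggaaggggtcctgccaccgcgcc
DUT: gggctgGCGGGAAAtttcggtTTTGGCGCg
RRM2, first: gcacagCCAATgggaagggccggggcacca
RRM2, second: ccaaagCCAATgggaagggccgggagcgcg
TK1: gcgctgATTGGccccatggcggcggggccg
DTYMK: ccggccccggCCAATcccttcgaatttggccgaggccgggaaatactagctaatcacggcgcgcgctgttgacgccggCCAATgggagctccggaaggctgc
SAMHD1: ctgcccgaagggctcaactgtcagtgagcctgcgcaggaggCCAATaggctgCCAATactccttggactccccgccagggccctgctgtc
An E2F-type word stood in the 250 bases before a start in 2 of 8 genes, TYMS (39 bases before the start) and DUT (42 and 27 bases before), against 3.4% of 27305 genes in the same table. CCAAT stood there in 5 of 8 (RRM1, RRM2, TK1, DTYMK and SAMHD1), against 37% of genes, and so before genes that fell and 1 that rose with indisulam. RRM2 held 3 copies before 1 of its starts, at 123, 93 and 66 bases, of which the nearer 2 are printed. TK1 held 2 copies before its start 2, at 77 and 46 bases, of which the farther is printed, and none before its start 1. Words of the CHR element (TTTGAA or TTCGAA) stood in 3 of 8, RRM1, DUT and DTYMK, against 17.2% of genes. RRM1 and DCK also fell with indisulam and are not printed, and DCK held no E2F-type, CCAAT or CHR word. These matches are descriptions of sequence, not sites shown to be bound.

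RIP with an antibody to RBM39 asked which RNAs the protein binds in MM1S. With 1 library each there is no test. RRM1 was at 37.7 FPKM with the RBM39 antibody and 18.5 FPKM with IgG, and TYMS at 276.1 and 142.5 FPKM, log2 ratios of 0.99 and 0.95 with 1 FPKM added to both values. RRM2, the most abundant of the 9 in both libraries, was at 385.1 and 420.7 FPKM, a log2 ratio of -0.13. The other ratios were 0.27 for TK1, -0.32 for SAMHD1, -0.57 for DTYMK, -0.96 for DUT, -1.0 for DCK and -1.21 for RRM2B. Of the 9 genes, 3 lay above 0, where 50.6% of 10966 genes did. With 1 FPKM added, 0 of the 9 were at least 2-fold higher in the RBM39 library, where 22.7% of genes were (RRM1 was 2.04-fold higher without it), and 2 (RRM2B and DCK) at least 2-fold lower, where 23.9% were. RRM1 and TYMS stood above 77.2% and 76.1% of genes. RRM2 stood above 45.7% of them.

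**Figure D5:**
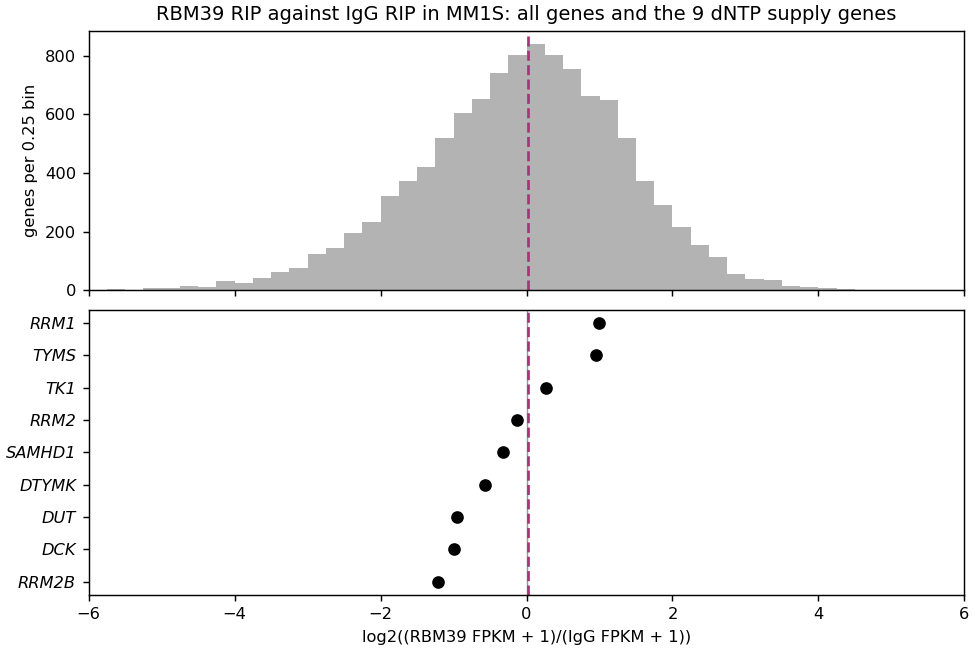
Top, distribution of the log2 ratio of RBM39 RIP to IgG RIP over 10966 genes, with its median of 0.02 dashed; bottom, the same ratio for each of the 9 dNTP supply genes. The 9 genes span -1.21 (RRM2B) to 0.99 (RRM1), inside the bulk of all genes.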

How the data were processed

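Values were used as deposited by the authors. The H929 and RIP tables hold FPKM made by the authors, per the file headers and names; column totals differ between libraries. In MM1S, the authors' name for the unit is FPKM, but the deposited values behave as TPM: column totals lie between 999999 and 1000001. GRCm38 and mm10, both mouse builds, are named in the submitters' processing notes, while the gene symbols are human; an aligner or counter is not given in the sources used here. Values from different tables, which were normalized separately, were never tested against each other. Rows with no gene name (0.436% to 0.459% and 0.174% to 0.237% of TPM in the MM1S tables) were left out.

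The test was limma 3.58.1 with its trend and robust options (R 4.3.3) on log2(value + 1). Genes entered when the number of libraries reaching 1 was no less than the size of the smaller group. The fit was tested on simulated data with 200 changed genes, fewer than limma called in any comparison. That simulation does not show how the fit behaves where most genes are called, as in H929. Ratios had two-sided exact permutation tests. RIP ratios add 1 FPKM, over genes reaching 1 FPKM with RBM39 or IgG. Promoter windows hold 250 bases. The members and lists were chosen with earlier results of these data known. Named genes are the 9, RBM39, ENOSF1, up to 3 called genes per list, direction and comparison by adjusted p, and the 3 genes most like RRM2, TYMS, RRM2B and SAMHD1; DUTP6 was chosen after its values were seen, and some genes that the rule names are not reported here. Other tools were Python 3.11.15, pandas 2.3.3, NumPy 2.4.6 and matplotlib 3.10.9.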

Additional observations from a re-analysis of the deposited data

Results flagged for a closer look

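For 6 of the 9 genes, every H929 library labelled shRBM39 lay on one side of all scramble libraries and every MM1S shRBM39 library on the other side, as did 33.6% of the 9499 genes tested in both tables. The H929 log2 differences were 1.91 for RRM2, 0.63 for TYMS, 0.59 for DTYMK, 0.19 for TK1, -0.84 for RRM2B and -1.26 for SAMHD1. In MM1S they were -1.99, -1.85, -1.22, -1.68, 0.33 and 0.46 in the same order, the last 2 not past limma's threshold. The difference between the lines was not tested, because the tables were normalized separately. RBM39 transcript was also opposite in the 2 lines, higher in the H929 libraries labelled shRBM39 (log2 difference 2.81) and lower in those of MM1S (-1.69).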

How the results depend on the processing

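Of 368 values of the 9 genes under alternatives, 329 kept their direction and side of the threshold, 31 lost a call, 6 gained one and 2 changed sign. The sign changed for DCK in H929, to 0.10 after median scaling and 0.10 after quantile normalization; RBM39 with indisulam, 0.05 as deposited, was -0.056 without indisulam replicate 1, -0.027 without replicate 2 and 0.24 without replicate 3. In the MM1S knockdown, limma called 0 of the 9 genes and 0 of all genes without a filter on low values (8 and 4966 at an unadjusted p below 0.05). Leaving 1 library out gave 0 to 4 of the 9 genes and 0 to 465 of all genes, with 5 to 8 of the 9 at an unadjusted p below 0.05 where 0 were called; a group reduced to a single library borrowed its spread from the remaining group. With indisulam, leaving 1 library out gave 1849 to 9350 calls over all genes. Deviations of like-numbered libraries had correlations of 0.129, -0.00044 and 0.025 (H929), -0.142 (knockdown) and 0.137, -0.148 and -0.025 (indisulam), and own-number partners were often not the closest, so numbers were not used to pair. The replicate block gave 2 calls among the 9 genes and 255 over all genes in the MM1S knockdown, against 5 and 1461, with TYMS and TK1 kept and adjusted p = 0.0507 for RRM1, 0.056 for RRM2 and 0.084 for DTYMK; crossed pairs, added after the data were seen, gave 5 and 772. In H929 and with indisulam the replicate block gave 6 and 8 calls among the 9, as without it. The median RIP ratio of the 9 genes was -0.32, and -0.34 both with a pseudocount of 0.1 and after median scaling. No ratio within a library changed direction. Depth is unknown in MM1S and RIP, so no counting interval is given.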
